A study of Mus musculus with 4 samples.

Results

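Endothelial cells of the embryonic heart with Aplnr or Lyve1, low Tnnt2 and no count of 5 endocardium-linked genes, called vascular here, were few, 54 of the 28025 cells kept and 54 of the 7205 endothelial cells (0.749%). Hearts came from C57BL/6J mouse embryos at E10.5, wild-type (Wt) or homozygous for the I383V variant of Cyp51 (Ho), a change made in the germline by CRISPR/Cas9. Every cell of a Ho heart carries the variant, so that no cell type is targeted, and Cyp51 encodes lanosterol 14-alpha demethylase, an enzyme of cholesterol synthesis. Each genotype had 2 single-cell libraries, named here Wt1, Wt2, Ho1 and Ho2. The sources used here do not give how many embryos or litters a library holds, so p-values measure the spread between these libraries.

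The assay tags mRNA with a barcode for its droplet and a unique molecular identifier (UMI), and a gene's value in a cell is the number of UMIs counted. Barcodes were kept with 500 to 6000 genes, 2000 to 50000 UMIs and at most 20% mitochondrial counts. Endothelial cells were those with a sum of at least 2 UMIs of Cdh5, the endothelial cadherin, and Pecam1, an adhesion molecule of endothelial junctions. Of these, a cell was taken as vascular when it had at least 1 UMI of Aplnr or Lyve1, no UMI of the 5 endocardium-linked genes Npr3, Nfatc1, Gata4, Wnt4 and Nts, and less than 10 UMIs of Tnnt2, the cardiac troponin T gene, per 10000. Levels of these 10 genes are therefore a consequence of the choice, and no comparison of them is a result.

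The endocardium is the inner lining of the heart tube, and at this stage it is the main endothelial layer of the organ. A vascular endothelium of veins, arteries and early plexus lies beside it at the inflow tract, the outflow tract and the surface of the heart. Aplnr encodes the apelin receptor, known from venous and sprouting endothelium, and Lyve1 a hyaluronan receptor known from lymphatic and some venous endothelium and from macrophages.

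Wt1 held 33 of the cells (61.1%), Wt2 held 9, Ho1 held 5 and Ho2 held 7. Wt hearts thus contributed 42 cells and Ho hearts 12. Summed over these cells, the 4 libraries gave 493291, 146475, 51664 and 161132 UMIs. A single UMI was worth 2.03 CPM, the count scaled to a fixed library total, in Wt1 and 19.4 in Ho1, so that levels in Ho1 were the coarsest. Median depth of a vascular cell in UMIs was 15212 for Wt1, 13965 for Wt2, 8889 for Ho1 and 22370 for Ho2, against 13825, 16401, 17143 and 16746 in the other endothelial cells. Over the files, 134 barcodes occurred in more than 1 library, and no vascular cell shared its barcode with a vascular cell of another library.

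The Ho1 library stood apart. Xist, the RNA of the inactive X chromosome, was at 31705 UMIs in the cells of Ho1, against 4, 4 and 1 in those of Wt1, Wt2 and Ho2, and the 4 Y-linked genes counted had none in Ho1 and 51, 14 and 10 UMIs in the vascular cells of Wt1, Wt2 and Ho2. Its vascular cells were also chosen differently. Of the 54 cells, 48 had Aplnr alone, 5 had Lyve1 alone and 1 had both, and 4 of the 5 cells of Ho1 were of the second kind, against 1 of 9 in Wt2 and none in Wt1 and Ho2. Counts of calls are therefore also given without Ho1.

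The promoters of the 3 genes that were highest over the other endothelial cells by the rule for named genes are shown first. Each is 300 bases, 250 before and 50 after a RefSeq start on GRCm38.p6, written 5′ to 3′ along the gene. Capitals mark GGAA, the core bound by ETS factors, or its reverse complement TTCC.

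Cldn5 (chr16:18776597-18776896, + strand): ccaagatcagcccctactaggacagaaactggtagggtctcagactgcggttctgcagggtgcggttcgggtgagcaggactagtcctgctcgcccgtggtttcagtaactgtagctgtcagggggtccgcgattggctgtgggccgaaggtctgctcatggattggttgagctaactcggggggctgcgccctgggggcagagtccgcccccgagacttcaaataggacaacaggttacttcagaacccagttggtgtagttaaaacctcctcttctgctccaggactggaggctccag
Clec1b (chr6:129397047-129397346, + strand): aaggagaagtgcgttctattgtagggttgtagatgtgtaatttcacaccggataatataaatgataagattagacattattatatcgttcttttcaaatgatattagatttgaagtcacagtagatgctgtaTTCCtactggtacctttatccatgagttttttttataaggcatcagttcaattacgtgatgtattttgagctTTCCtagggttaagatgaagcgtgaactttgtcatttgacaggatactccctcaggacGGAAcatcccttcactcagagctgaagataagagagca
Arhgap18 (chr10:26772262-26772561, + strand): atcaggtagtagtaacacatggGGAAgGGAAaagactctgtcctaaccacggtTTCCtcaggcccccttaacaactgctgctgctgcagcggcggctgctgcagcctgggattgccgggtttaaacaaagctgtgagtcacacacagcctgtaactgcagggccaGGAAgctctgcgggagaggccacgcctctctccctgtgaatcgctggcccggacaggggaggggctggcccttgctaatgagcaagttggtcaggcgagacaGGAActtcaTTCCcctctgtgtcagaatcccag

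Cldn5 had no match of the 4 letters in this window, Clec1b had 3 and Arhgap18 had 6. The motif is short, and 95.9% of 27025 promoters of this length held it on either strand, with a median of 3 matches. Of the 15 genes named as higher, 13 had a promoter in the RefSeq table and 10 of those held the motif. The match of letters is a description of these windows, and no binding was measured. The start used for Arhgap18 lies inside the gene as GENCODE gives it (chromosome 10, 26753421 to 26918648).

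Some of the cells passed the gate by a narrow margin. Of the 7205 endothelial cells, 308 had no UMI of the 5 endocardial genes and 737 had Aplnr or Lyve1. Both held for 58 cells, of which the limit on Tnnt2 removed 4. Inside the gate, 15 of the 54 cells had exactly 1 UMI of Aplnr or Lyve1 and 6 had exactly 2 of Cdh5 and Pecam1. Outside it, under the same limit on Tnnt2, lay 233 endothelial cells with no endocardial UMI and neither Aplnr nor Lyve1, 39 cells with Aplnr or Lyve1 and exactly 1 endocardial UMI, and 617 with 2 or more.

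The 39 cells that missed the gate by 1 endocardial UMI stood near the chosen cells in the genes that were high there. Cldn5 was at 292 CPM of summed UMIs in the 54 vascular cells, 249.7 in these 39 cells, 28.1 in the 617 cells with 2 or more endocardial UMIs and 37.4 in the 233 cells without Aplnr and Lyve1. For Clec1b the order was the same, with 236, 159.8, 35.5 and 40.4 CPM. In Pdlim3, which encodes a PDZ and LIM domain protein of the actin cytoskeleton, the cells just outside stood near the endocardium-bearing cells instead, at 3.52, 159.8, 173.5 and 512 CPM in the same order of the 4 kinds. The counting error of these levels is drawn in the plot of cells inside and outside the gate. These cells were 17, 12, 6 and 4 in Wt1, Wt2, Ho1 and Ho2, and the gate left them among the other endothelial cells.

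**Figure D1:**
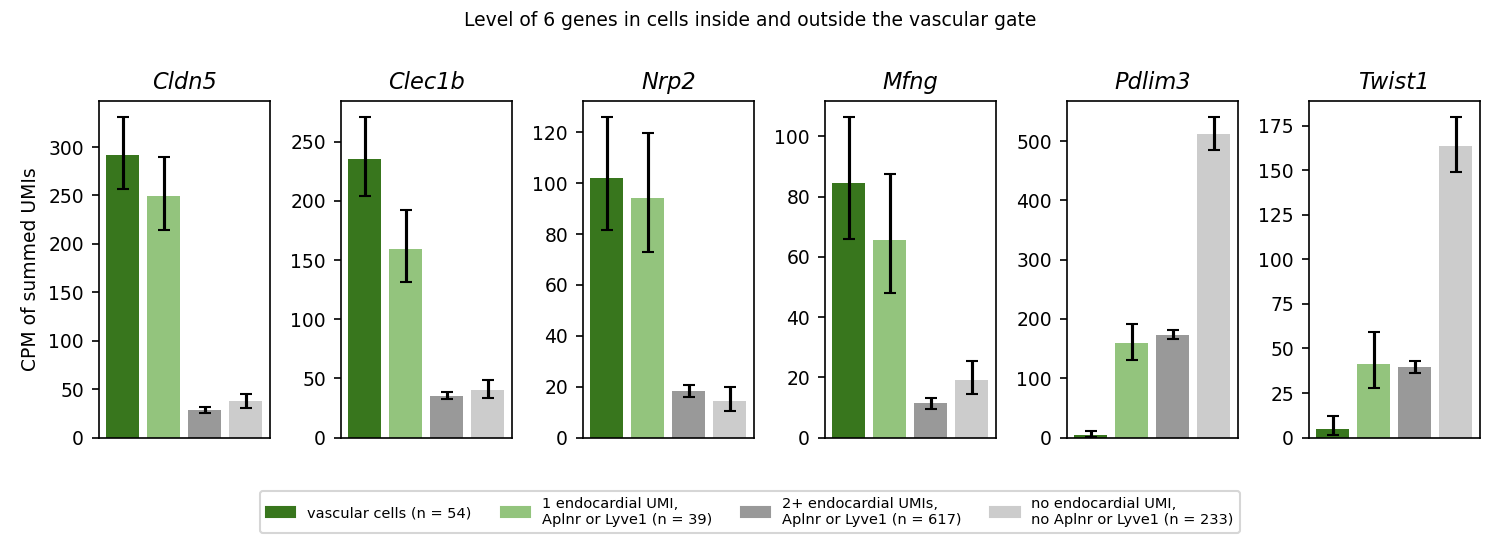
Level of 6 genes, as CPM of UMIs summed over cells of all 4 libraries, in the 54 vascular cells and in 3 kinds of endothelial cells outside the gate. The bars start at 0, the error bars are exact Clopper-Pearson 95% intervals of the share of UMIs, and the legend gives the number of cells. Cldn5, Clec1b, Nrp2 and Mfng were high in the vascular cells and in the 39 cells with 1 endocardial UMI, while Pdlim3 and Twist1 were near 0 in the vascular cells alone.

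The share of endothelial cells that were vascular was 2.21% in Wt1 (exact Clopper-Pearson 95% interval 1.53 to 3.10), 0.436% in Wt2 (0.199 to 0.826), 0.211% in Ho1 (0.0685 to 0.491) and for Ho2 0.548% (0.220 to 1.13). Intervals here and below cover counting error only. Ho2 lay above Wt2, so that the genotypes overlapped, and the high value of Wt1 made most of the difference. With up to 1 endocardial UMI allowed the shares were 3.36%, 1.02%, 0.464% and 0.861%, without overlap, while with the gate on thinned cells both Ho libraries (0.752% and 1.25%) were above Wt2 (0.674%). The means were 1.33% ± 1.26 for Wt and 0.379% ± 0.238 for Ho (SD, n = 2 each), and a two-sided exact permutation test gave p = 0.667, where 2 against 2 libraries allow no p below 0.3333. As a share of all cells kept, the values were 0.398%, 0.132%, 0.0721% and 0.117% in the same order, so that the Ho values lay below the Wt values, at the smallest p the design allows (exact permutation test, p = 0.3333).

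The make-up of the libraries moved with this share. Cells with a UMI of Crabp1, which encodes a retinoic acid binding protein of mesenchyme and neural crest, were 49.0%, 24.1%, 12.6% and 25.3% of Wt1, Wt2, Ho1 and Ho2. Cells with at least 10 UMIs of Tnnt2 per 10000 were 19.003%, 35.6%, 49.1% and 39.6%. Wt1 was thus the library richest in non-muscle tissue and Ho1 the one richest in muscle. The part of this make-up in the shares was not tested.

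**Figure D2:**
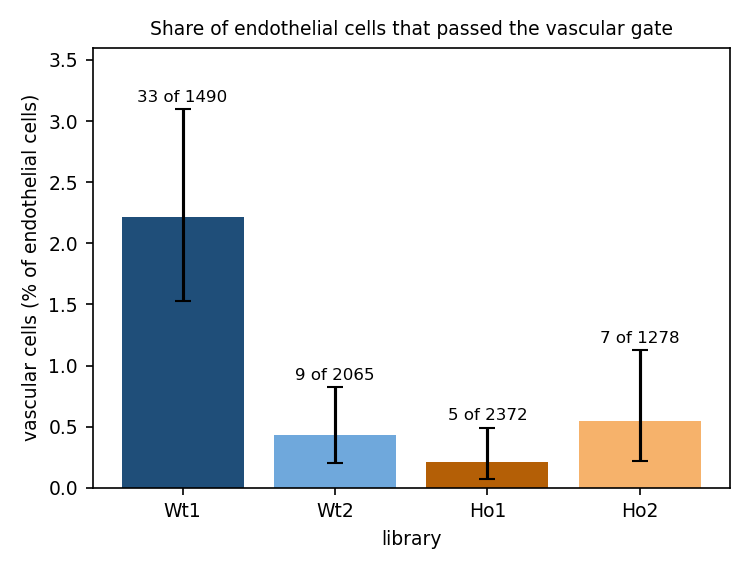
Vascular cells as a percent of the endothelial cells of each library, with exact 95% binomial intervals and the counts above the bars; the axis starts at 0. Wt1 sits at 2.21% and the other 3 libraries between 0.211% and 0.548%, with Ho2 above Wt2.

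The vascular cells were compared with the 7151 other endothelial cells of the same libraries as a description, since the gate itself separated the groups. Of 5771 genes with a mean of at least 20 CPM in either group, 26 (0.451%) were at least 2 times higher in the vascular cells of 4 of 4 libraries and 106 (1.84%) were at least 2 times lower, by the ratio of CPM with 1 CPM added to each. The median log2 ratio of all these genes was -0.11. Without Ho1 the counts were 66 and 191, of which 24 and 103 were among the former. With 10 CPM added in place of 1 they were 10 and 64, and with the gate on cells thinned to 2000 UMIs 13 and 68, of which 7 and 31 were shared. With up to 1 endocardial UMI allowed they were 16 and 38, of which 11 and 26 were shared, and with Aplnr alone as the gate 30 and 184.

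Cldn5, the claudin of endothelial tight junctions, had the highest median ratio among genes with the same sign in 4 of 4 libraries. It had 157, 45, 6 and 41 UMIs in the vascular cells of Wt1, Wt2, Ho1 and Ho2, or 318, 307, 116 and 254 CPM, against 22.9, 14.0, 6.22 and 23.3 CPM in the other endothelial cells. Every vascular level was above every other level, and Ho1 was lowest in both groups. The pooled count was 14.3 times that at the level of the other cells (exact Poisson 95% interval 12.6 to 16.2), and the median log2 ratio was 3.88. A UMI of Cldn5 was found in 45 of 54 vascular cells (83.3%), in 12.7% of the other endothelial cells and in 0.144% of 9001 cells with high Tnnt2, whose median depth was 14464 to 19193.5 UMIs by library against 15211.5 for the vascular cells. After thinning every cell to 2000 UMIs the shares were 35.2%, 2.62% and 0.0222%.

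Clec1b, a C-type lectin receptor known from platelets, was counted 119, 21, 15 and 46 times in the 4 libraries in that order, with a pooled count 13.1 times that at the level of the other cells (11.3 to 15.03). It was detected in 40 of 54 vascular cells (74.1%), in 15.8% of the other endothelial cells and in 0.600% of the cells with high Tnnt2, and after thinning in 25.9%, 2.68% and 0.1000%. Markers of the platelet lineage did not come with it. The 5 megakaryocyte genes summed to 8 UMIs in the vascular cells, 4 of them Pf4, with Ppbp and Gp1bb at 0.

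Arhgap18 was 11.9 times the other level (9.30 to 15.1), with 48, 15, 3 and 4 UMIs in the same order. Nrp2, a co-receptor for VEGF and semaphorins in veins and lymphatics, was 8.11 times the other level (6.50 to 10.0), with 58, 18, 1 and 10 UMIs. Bok, a member of the BCL2 family, was 8.20 times the other level (6.86 to 9.72), and Mfng, a glycosyltransferase that modifies Notch receptors, 7.13 times (5.58 to 8.97). The ratio of Ho1 rested on 1 or 2 UMIs for Nrp2, Bok, Mfng and N4bp3. S100a16, a calcium-binding protein, had far more UMIs (151, 41, 9 and 62) at a smaller ratio of 4.27 (3.77 to 4.82), and its 4 library ratios lay within 1.84 to 2.21 on the log2 scale. The other genes named as higher were Hpgd, Mmrn1, Acvrl1, Pcdh17, Tspan15, Upp1 and Pde2a, with median log2 ratios of 2.11 to 2.77. Hpgd, Pcdh17 and Upp1 among them fell short of 2 times in 1 library each.

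**Figure D3:**
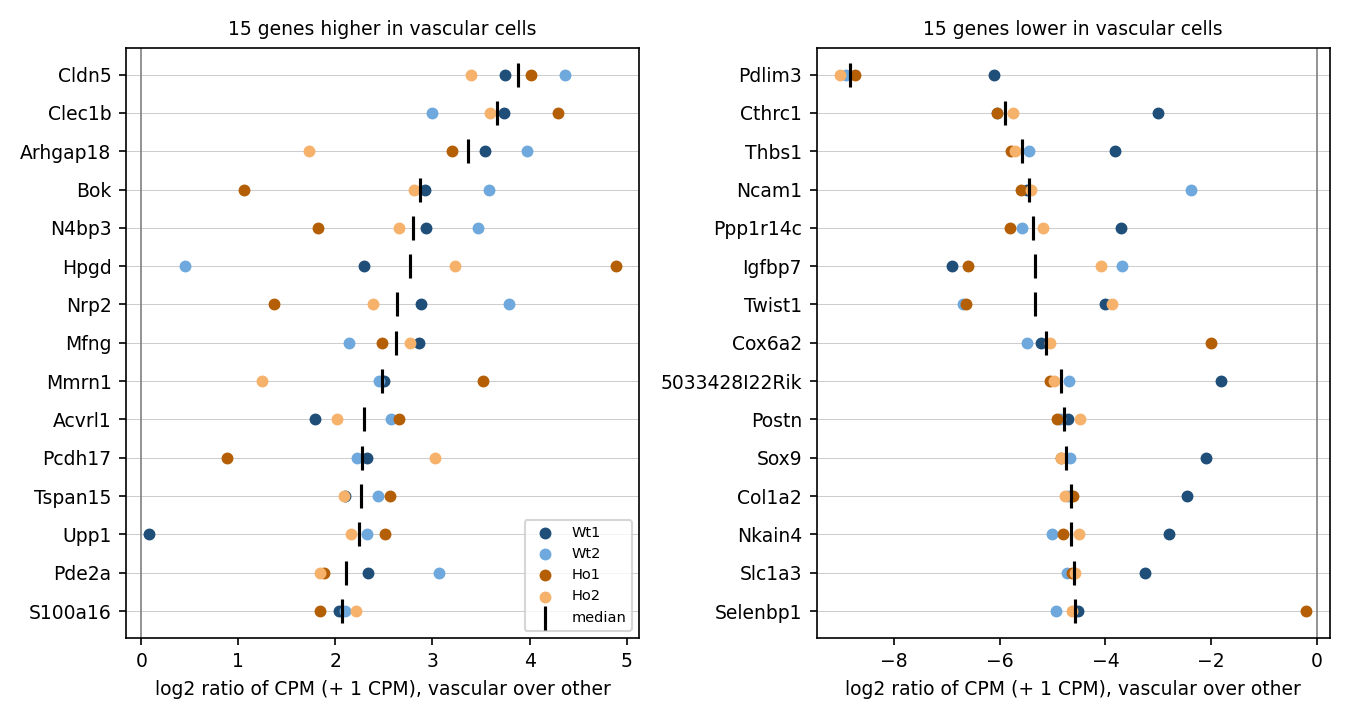
Log2 ratio of CPM (1 CPM added) of vascular over other endothelial cells for the 15 genes named as higher and the 15 named as lower; points are the 4 libraries, black ticks the medians, and 0 is marked in grey. Cldn5 reaches 4.36 and no library is below 3.396, and Clec1b lies at 3.00 to 4.29 over the 4 libraries, while points of the lower genes that lie apart from the rest are mostly libraries with a few UMIs in place of none.

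The lower side was led by Pdlim3, with 3 UMIs in all the vascular cells where 416 would stand at the level of the other endothelial cells. Its CPM were 6.08, 0, 0 and 0 in Wt1, Wt2, Ho1 and Ho2, against 486, 480, 429 and 520 in the other cells. Twist1, a transcription factor of mesenchyme and of forming heart valves, had 4 UMIs where 92.8 would stand, Igfbp7, a secreted binding protein, had 2 for 97.8, and the thrombospondin gene Thbs1 had 1 for 37.7. Postn, the matrix protein periostin, had none for 21.4, at least 7.14-fold lower by a floor of 3 counts over the 54 cells. The matrix and valve genes Cthrc1, Sox9 and Col1a2 had 4, 3 and 2 UMIs in all.

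Of the 14 endocardial genes that the gate did not use, Gata5 and Tbx20 were at least 2 times lower in 4 of 4 libraries, where 1.84% of all genes described were, and the median log2 ratio of the 11 that were measured well enough was -2.79. The summed level of all 19 genes of the list, with the 5 that the gate requires at 0, was 215, 369, 736 and 329 CPM in the vascular cells of Wt1, Wt2, Ho1 and Ho2, against 1467, 1488, 1478 and 1628 in the other cells. The other cells include the 5 genes in their sums, so that part of this gap is set by the gate and is no result. Ho1 was the highest of the vascular sums. Hapln1, a link protein of the hyaluronan matrix, was the member that remained most abundant, with 157 UMIs, 0.405 times the other level. Of 24 pan-endothelial genes measured, Cldn5 and the adhesion molecule Esam were higher in 4 of 4 libraries, where 0.451% of all genes were, and none was lower.

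Receptors of the VEGF family differed in their ratio to the other endothelium, and none of Flt4, Kdr and Flt1 reached 2 times in 4 of 4 libraries. Flt4, the receptor for VEGFC, had 23, 10, 1 and 5 UMIs by library (Wt1, Wt2, Ho1, Ho2), 3.97 times the other level (2.82 to 5.42). Kdr, the main VEGF receptor, had 123, 30, 12 and 58 UMIs, 2.03 times the other level (1.77 to 2.32). For Flt1, the decoy receptor, the interval of the ratio of 1.24 held 1 (0.984 to 1.54). The angiopoietin receptor Tek was at 0.546 times the other level (0.412 to 0.709) and its partner Tie1 at 0.945 (0.748 to 1.18). Of the 10 genes of apelin, VEGF, angiopoietin and Tie signalling measured, 1 was higher in 4 of 4 libraries beside the gate's Aplnr, which was Nrp2, and Vegfc was lower, beside 0.451% and 1.84% of all genes. Vegfc had only 4 UMIs in all, with 0 in Wt2 and 0 in Ho1.

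Among 6 venous genes measured, 1 was higher in 4 of 4 libraries and none was lower, beside 0.451% and 1.84% of all genes. A positive median ratio was found for 4 of them, where 2275 of all 5771 genes had one. Dab2 and Bmp4 of that list were detected less often in the vascular than in the other endothelial cells (29.6% against 37.3%, and 7.41% against 12.9%). Nrp2 was detected in 66.7% of the vascular cells, 11.1% of the other endothelial cells and 12.4% of the cells with high Tnnt2, and Flt4 in 48.1%, 16.9% and 0.278%. After thinning to 2000 UMIs the shares were 16.7%, 1.89% and 2.87% for Nrp2 and 3.70%, 2.18% and 0.0444% for Flt4, the latter from 2 of the 54 cells. Nr2f2, a transcription factor of venous fate, was detected in 38.9%, 30.8% and 27.3%, and after thinning in 1 of the 54 cells, so that its share is not read as expression. Gja4, the connexin 37 gene, was detected in 16 cells (29.6%) and in 62.3% of the other endothelial cells, with 89 UMIs or 0.467 times the other level. Nr2f2 had 13, 9, 0 and 6 UMIs, and the interval of its ratio of 1.29 held 1 (0.857 to 1.86). Of 13 arterial genes measured, Acvrl1, a receptor for BMP9, was higher in 4 of 4 libraries and Bmx, Vegfc and Mecom were lower, where 0.451% and 1.84% of all genes described were. Bmx, Vegfc and Mecom had 3, 4 and 20 UMIs in all and 0, 0 and 1 in Ho1. A single UMI of Ho1 was worth 19.4 CPM, so that their ratios in Ho1 are uncertain. Of 6 lymphatic genes measured, Nrp2 and Mmrn1 were higher in 4 of 4 libraries, beside 0.451% of all genes. The log2 ratio of Mmrn1 was -2.32 with the gate on thinned cells, however. Prox1, the gene that specifies lymphatic fate, had 5 UMIs and Pdpn 1.

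Klf2, a transcription factor induced by flow, was at 89.2, 178, 58.1 and 80.7 CPM in the vascular cells of Wt1, Wt2, Ho1 and Ho2, against 204, 241, 228 and 313 in the other cells, so that the groups did not overlap. Edn1, the endothelin gene, was the only one of 6 flow-response genes measured that was at least 2 times lower in 4 of 4 libraries, with 16 UMIs where 83.8 would stand, beside 1.84% of all genes. The other 5 had negative median ratios and at least 1 library short of 2 times, and of all 5771 genes 2275 had a positive median ratio. Fabp4 and Apln were uneven over cells. Fabp4, a lipid-binding protein of capillaries, had 37 UMIs, of which 24 lay in 1 cell of Ho2, and Apln, the ligand of Aplnr, had 12 UMIs, all in Wt1. Col15a1, a collagen of vessel basement membranes, was found in 25 of 54 cells against 1.09% of the other endothelial cells, with 42 and 7 UMIs in Wt and 0 and 9 in Ho. No share after thinning or in the cells with high Tnnt2 stands beside it, so that it is not read as expression.

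**Figure D4:**
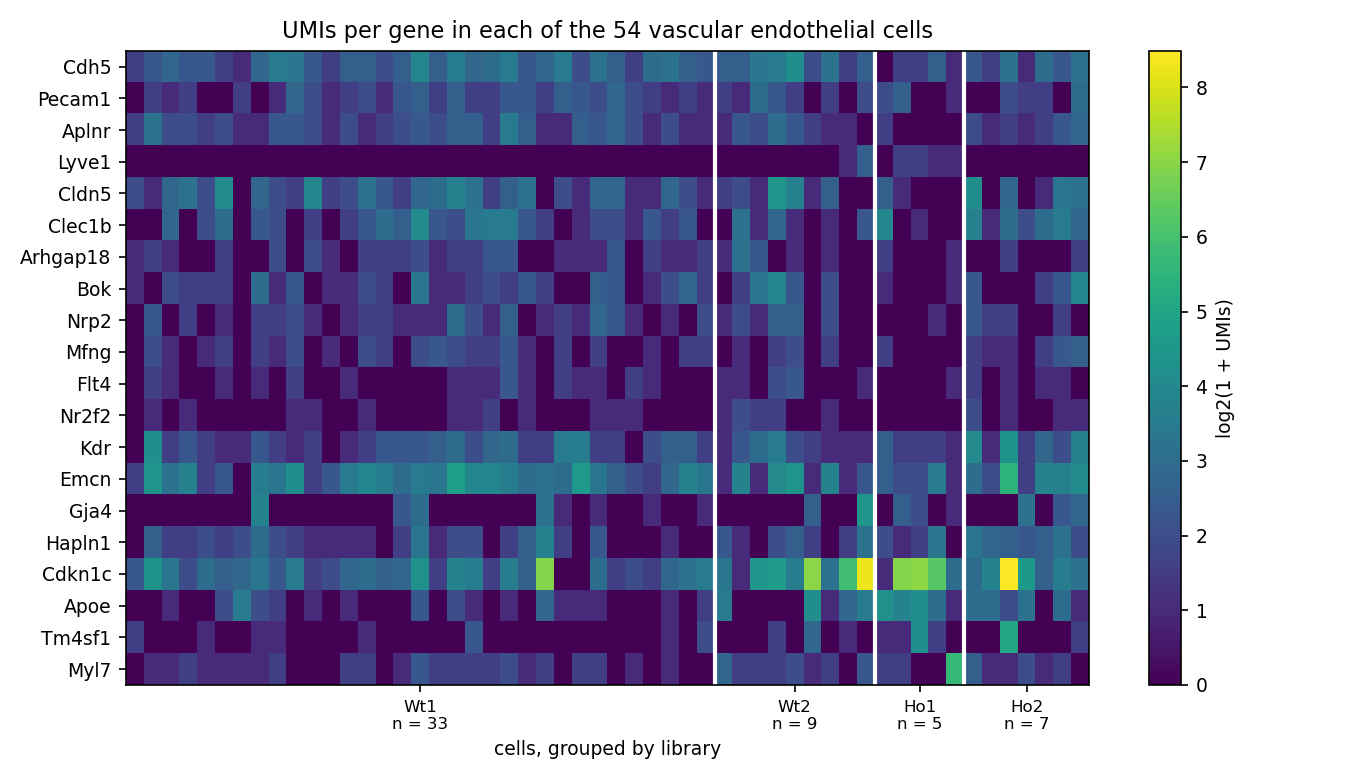
UMIs of 20 genes, as log2(1 + UMIs) in colour, in each of the 54 vascular cells; columns are cells grouped by library with white lines between libraries, and rows are genes. Cldn5 and Clec1b fill most columns, Lyve1 appears in 6 cells, and the columns brightest for Cdkn1c are 4 of Wt and 4 of Ho.

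The 54 cells were not of one kind. The 5 cells with Lyve1 alone had 1 UMI of Cldn5 (20.5 CPM), none of Mfng and none of Acvrl1, where the 49 cells with Aplnr had 309, 89.6 and 48.5 CPM. Gja4 was at 614 CPM in the former, where 21 of its 30 UMIs lay in 1 cell of Wt2, and 73.4 in the latter. Apoe, the apolipoprotein, was at 982 and 158. These 5 cells held 48890 UMIs, so that each UMI was worth more than in the larger group, and 4 of them belonged to Ho1. Genes of the endocardial list that the gate did not use were also higher in the 5 cells, with Adgrg6 at 102 against 3.73 CPM, Hand2 at 143 against 11.2, Cdh11 at 81.8 against 2.49 and Gata6 at 81.8 against 8.71, on 4 to 7 UMIs each in the 5 cells. Cdkn1c was at 13193 CPM in them and 1264 in the cells with Aplnr. These values go against the name vascular for the cells with Lyve1 alone, 4 of the 5 cells of Ho1, which are named here only by the gate. Its level in the cells with Aplnr does not check the label, as Cldn5 was picked in the same cells.

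Cdkn1c, an inhibitor of the cell cycle that was abundant in the other endothelial cells (8181 to 10882 CPM), gave a split that overlapped with that of Lyve1. In a split chosen after its values were seen, 8 cells had 58 to 359 UMIs and 46 had at most 25. Wt1 and Ho2 held 1 of the 8 each, and Wt2 and Ho1 held 3 each. Of the 8, 5 had Lyve1 and 4 had Aplnr, against 1 and 45 of the 46. Their levels of Cldn5, Gja4 and Hapln1 were 73.4, 385 and 376 CPM, against 324, 63.2 and 156 in the 46 cells. A single cell of Wt2 held 21 of the 42 UMIs of Gja4 in the 8 cells. All 8 had a UMI of Hapln1, as did 34 of the 46.

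RNA of other cell types was counted in the same cells. The 8 cardiomyocyte genes, among them Tnnt2 of the gate, summed to 100 and 52 UMIs in Wt and 117 and 43 in Ho, of which 99 lay in 1 cell of Ho1 with 4951 UMIs, and their level was 203, 355, 2265 and 267 CPM against 1921, 2655, 6408 and 2047 in the other endothelial cells. Tnnt2 is limited by the gate in the vascular cells alone, so that part of this gap follows from the choice. Myl7, an atrial myosin light chain, was the most abundant at 128 UMIs. The 11 macrophage genes summed to 11 UMIs with C1qa, Csf1r, Cx3cr1 and Mrc1 among 7 at 0. Erythroid genes summed to 49 UMIs, 47 of them the embryonic globin Hbb-y and 28 in 1 cell of Wt2. Of 36 UMIs of 5 epithelial genes, 35 were in Wt1 and 17 were Epcam, with Cdh1 at 0. The 7 mesenchymal genes summed to 18 UMIs, 8 of them Dlk1, with Postn and Pdgfra at 0. Scrublet called 3 of the 54 cells as doublets, all in Wt1.

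Ho was then compared with Wt in the summed vascular cells, with 5 and 7 cells on the Ho side. By edgeR's quasi-likelihood test with Benjamini-Hochberg adjustment over 2265 genes, 5 (0.221%) passed an adjusted p of 0.05, of which 4 (0.177%) were lower and 1 (0.0442%) was higher in Ho. Without Ho1 27 were called, but Ho is then 1 library of 7 cells that is assumed to vary like the Wt libraries, so that this count is no stronger result. The 4 that fell were histone genes and the 1 that rose was Tm4sf1. At an unadjusted p under 0.05 there were 109 genes (4.81%), 53 higher (2.34%) and 56 lower (2.47%). In 16.4% of the genes tested the lowest Ho value was above the highest Wt value, and in 18.1% the highest Ho value was below the lowest Wt value.

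Hist1h2ae, a gene for histone H2A on chromosome 13 (23570517 to 23571220 on GRCm38), had 236 and 43 UMIs in Wt1 and Wt2 and 0 and 4 in Ho1 and Ho2. The Ho values lay far below those of Wt, and the log2 fold change was -4.39 ± 0.57 (SE, edgeR adjusted p = 0.0112). Hist1h1b, a linker histone gene, had 108 and 18 UMIs in Wt and none in Ho, at least 14.0-fold lower by a floor of 3 counts over the Ho group (edgeR adjusted p = 0.0207). Hist1h1e, also a linker histone, had 76 and 18 UMIs in Wt and 1 in each Ho library (log2 fold change -3.83 ± 0.65, adjusted p = 0.0366 by edgeR). Hist1h2ap had 109, 16, 1 and 0 UMIs, a ratio that a count of 1 leaves uncertain (edgeR adjusted p = 0.0373). Hist1h1b, Hist1h1e and Hist1h2ap were not called by DESeq2 or without Wt1, and Hist1h2ap was not called with Aplnr alone as the gate. Hist1h1e was not called without Ho2 either. In the other endothelial cells Hist1h1e was at 101, 114, 71.1 and 66.8 normalized CPM in Wt1, Wt2, Ho1 and Ho2. Hist1h2ap was at 221, 139, 92.6 and 131 there. Both were thus lower in both Ho libraries there too, as were 18.1% of the genes tested in those cells. Hist1h1b overlapped, at 182, 215, 169 and 187, and none was called there. Such histone genes are transcribed in S phase, and their mRNAs mostly lack a poly(A) tail. Those for H2A are near-identical copies, so that the assignment of their reads is uncertain.

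The histone UMIs were held by part of the cells. Of the 33 cells of Wt1, 14 had 5 or more UMIs of these 4 genes in sum, and 3 of 9 cells of Wt2 did, with a highest value of 71. None of the 12 Ho cells had more than 2. In Wt2, 3 cells held 96.8% of the histone UMIs. The 20 S-phase genes of a separate list had median levels of 17.7, 12.2, 10.1 and 11.0 UMIs per 10000 in the cells of Wt1, Wt2, Ho1 and Ho2, with cells up to 37.2 in Ho1 and 26.3 in Ho2. Of the 13 tested, none passed the adjustment, 3 were higher in Ho, and their median log2 fold change was -0.43, against -0.01 over all genes tested. These S-phase medians were lower in each Ho library than in each Wt library, while those of 20 G2/M genes were higher, at 12.95, 15.5, 15.7 and 23.5 in the same order. Summed over cells, the G2/M level was 2457, 2062, 1761 and 2880 CPM, with Ho1 lowest, so that the genotypes overlapped. Of 12 G2/M genes tested 9 were higher in Ho and none passed, where 1109 of all 2265 genes were higher and 0.221% passed. The part of either in the histone result was not tested.

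Tm4sf1, a tetraspan membrane protein of endothelium, had 14 and 9 UMIs in Wt1 and Wt2 and 21 and 35 in Ho1 and Ho2. The genotypes did not overlap in level, at 32.7 and 71.7 normalized CPM in Wt and 499 and 248 in Ho, and the log2 fold change was 2.90 ± 0.46 (SE, edgeR adjusted p = 0.0259). Of the 35 UMIs of Ho2, 33 lay in a single cell, which left 2 in the remaining 6 cells. In Ho1, 17 of the 21 UMIs lay in a single cell. The 8 cells high in Cdkn1c, which were 1, 3, 3 and 1 in Wt1, Wt2, Ho1 and Ho2, held 60 of the 79 UMIs of Tm4sf1. Its level was 550 CPM in them and 25.6 in the other 46 cells. In the fit with both cell groups Tm4sf1 was at 30.0, 60.1, 368 and 209 normalized CPM in the vascular cells. It was at 211, 279, 216 and 182 in the other endothelial cells, so that the Wt vascular levels lay below all of these. The gene was not called with Aplnr alone as the gate, which leaves 1 cell in Ho1, with up to 1 endocardial UMI allowed, by DESeq2, or without Wt1.

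**Figure D5:**
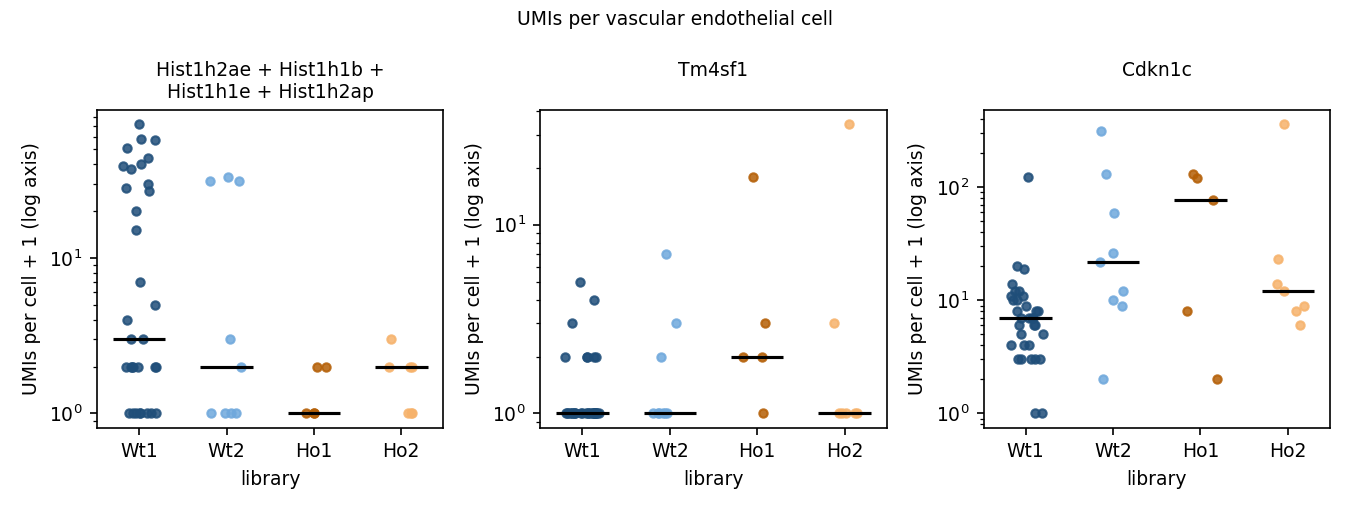
UMIs per vascular cell, plus 1, on log axes for the sum of the 4 histone genes that fell, for Tm4sf1 and for Cdkn1c; points are cells, coloured by library, and black lines are medians. Histone UMIs reach 71 in a Wt1 cell and 2 at most in the Ho cells, and the highest Tm4sf1 and Cdkn1c values are in Ho2.

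The 5 genes next in order of p did not pass. They were Hist1h2an, Fabp5, Celf1, Tmsb4x and Ccnd2, with edgeR adjusted p from 0.459 to 0.926. Fabp5, a fatty acid binding protein, had 213 and 14 UMIs in Wt, 64 and 137 in Ho, and a log2 fold change of 1.80 ± 0.45 (SE). The calls depended on the gate. None of the 5 called genes was called when up to 1 endocardial UMI was allowed, which brought the cells to 50, 21, 11 and 11 in Wt1, Wt2, Ho1 and Ho2.

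Genes that mark the vascular cells did not pass between the genotypes. Cldn5 was at 367 and 358 normalized CPM in Wt1 and Wt2 and at 143 and 290 in Ho1 and Ho2, without overlap, and with a log2 fold change of -0.58 ± 0.33 (SE, edgeR adjusted p = 0.926). Clec1b was at 278, 167, 357 and 326 normalized CPM in the same order (log2 fold change 0.51 ± 0.33, edgeR adjusted p = 0.926). In Ho1, however, 4 cells had Lyve1 alone, and the 5 cells of that kind over all libraries held 1 UMI of Cldn5. The part of this in the level of Cldn5 in Ho1 was not tested. Of 20 pan-endothelial genes tested none was called in either direction, beside 0.221% of all genes, and 11 were higher in Ho. The 20 include Cdh5 and Pecam1 of the gate, whose comparison is no result and which were not among the 11. Nrp2 had 58 and 18 UMIs in Wt and 1 and 10 in Ho, a log2 fold change of -1.22 ± 0.46 (edgeR adjusted p = 0.926).

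Cyp51 and its pathway were covered thinly. Cyp51 had 46 and 9 UMIs in Wt1 and Wt2 and 0 and 15 in Ho1 and Ho2, or 108, 71.7, 0 and 106 normalized CPM. The genotypes overlapped (log2 fold change -0.30 ± 0.60, edgeR adjusted p = 0.997), and no UMI in Ho1 allows a level of up to 58.1 CPM (3 counts), beside 61.4 CPM in Wt2 on the same scale. The variant changes an amino acid, so that its UMI counts do not check the genotype. Of 26 genes of cholesterol synthesis, 8 were tested, none was called, 6 were higher in Ho, and the median log2 fold change was 0.28. Over all 2265 genes 0.221% were called, 1109 were higher and the median was -0.01. Of 19 genes of the hedgehog response 2 were tested and neither was called. Over the vascular cells as a whole, Cyp51 stood at 1.83 times the level of the other endothelial cells (1.43 to 2.32), with Ho1 the only library below it.

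In the 7151 other endothelial cells of the same libraries no gene of 14249 passed edgeR's test (0%), with 823 at an unadjusted p under 0.05 and 37 called by DESeq2, and 16 were called without Ho1. The difference of the genotype effect between vascular and other endothelial cells was tested as an interaction. There 19 of 12837 genes (0.148%) passed, 9 with a more positive effect in vascular cells (0.0701%) and 10 with a more negative one (0.0779%), and 16 passed without Ho1. Hist1h2ae had an interaction of -4.07 ± 0.51 on the log2 scale (SE, edgeR adjusted p = 1.23e-11), with 379, 343, 311 and 247 normalized CPM in the other cells of Wt1, Wt2, Ho1 and Ho2 against 506, 287, 0 and 23.8 in the vascular cells. Tm4sf1 had one of 3.01 ± 0.39 (edgeR adjusted p = 1.48e-10). The fit of the interaction takes its spread between libraries from the sums of both cell groups. Its common dispersion, a measure of that spread, was 0.0115, against 0.0297 for the vascular sums alone. Its adjusted p-values may thus understate the spread of sums over few vascular cells. In the vascular cells alone the edgeR adjusted p was 0.0112 for Hist1h2ae and 0.0259 for Tm4sf1.

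Tmsb4x, the actin-binding peptide thymosin beta 4, was counted well in all cells and had 5727, 1679, 161 and 1230 UMIs in the vascular cells of Wt1, Wt2, Ho1 and Ho2. Its normalized CPM were 12286, 11208, 2818 and 7332 there and 6085, 5245, 5867 and 6433 in the other cells. The Ho values were below the Wt values in the vascular cells alone, with an interaction of -1.43 ± 0.19 (edgeR adjusted p = 2.86e-10). Gng11, a G protein subunit, was also lower in both Ho libraries than in either Wt library (633, 268, 24 and 170 UMIs, interaction -1.03 ± 0.23, edgeR adjusted p = 0.00890). Ho1, where 4 of 5 cells had Lyve1 alone, was the lowest library in both genes. The interaction of Gng11 passed in 5 of 13 alternatives, and was lost without Ho1, with Aplnr alone and without either Wt library among others. That of Tmsb4x passed in 9 of 13 and was lost by DESeq2, with at least 10 UMIs in every sum, without Wt1 and without Wt2.

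Genes with a more positive effect in vascular cells included Cdkn1c, Lgals1, Apoe, Fabp5 and H19. Their normalized CPM were lower in the vascular than in the other endothelial cells of each library, except for Apoe in Ho1. By CPM of all UMIs summed, H19 in Ho1 was not lower either. Cdkn1c had 328, 574, 334 and 425 UMIs in the vascular cells of Wt1, Wt2, Ho1 and Ho2, and Wt2 lay between the 2 Ho libraries in level. In Ho2, 359 of the 425 UMIs lay in a single cell, the same one that held most of Tm4sf1. All 38 UMIs of Plk4 in Ho1 lay in 1 cell, and 18 of the 24 UMIs of S100a6 in Ho2 did. In Ho2 the cell highest in Cdkn1c also held 114 of the 191 UMIs of H19 and 68 of the 137 of Fabp5. In Ho1 a single cell held 34 of the 62 UMIs of Lgals1. The interactions of Lgals1, Apoe, H19, Rrm2, Plk4 and Ptn were lost without Ho1. Those of Cdkn1c, Lgals1, Apoe and H19 were lost with Aplnr alone as the gate, and those of Cdkn1c, Apoe and H19 without Wt1. Those of Tm4sf1, Cdkn1c, Lgals1, Fabp5, Plk4 and Ptn had the opposite sign with the gate on thinned cells.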

How the data were processed

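The authors aligned reads to mm10 with Cell Ranger 6.1.1 and deposited raw UMI counts of 32285 genes for barcodes called as cells, without normalization. Each of the 33589 barcodes was filtered and gated as the report states, with the study's upper limits, and counts were summed per library. The members and the 26 gene lists were chosen with earlier results of these data known. Named genes were the gate's genes, list genes, the 15 highest and 15 lowest by median log2 ratio (1 CPM added, 20 CPM in either group, same sign in 4 of 4 libraries), and called genes or those of smallest p. Any further gene was picked with its values in view.

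Genotypes were compared by edgeR 4.0.16 in R 4.3.3 (TMM, filterByExpr, quasi-likelihood test, Benjamini-Hochberg at 0.05), and the interaction with the library as a block. Scripts were tested on simulated data with 200 genes changed. At a log2 fold change of 1, the test recovered 30% of them in vascular cells, 83.5% in other endothelial cells and 1% by the interaction. At a log2 fold change of 2 it recovered 80%, 97.5% and 23%. A gene that was not called is thus not shown to be unchanged. Alternatives were DESeq2 1.42.0, RLE factors, other filters, gates and depths, Scrublet in scanpy 1.11.5 for doublets, a replicate block and leaving out libraries. CPM beside edgeR values are normalized by TMM, others by all UMIs summed. GENCODE M21 positions exist for 99.6% of gene identifiers. Library depth was 107377100 to 127018819 UMIs.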

Additional observations from a re-analysis of the deposited data

Results flagged for a closer look

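The genotype effect differed between vascular and other endothelial cells in 19 genes by the interaction term of edgeR. The fit shares its spread between both cell groups, so that its p-values may understate the spread of the vascular sums. The adjusted p of each gene was as follows. For the histone genes it was 1.23e-11 for Hist1h2ae, 2.95e-10 for Hist1h1b, 4.13e-05 for Hist1h2ap, 0.0103 for Hist1h1e and 0.0167 for Hist1h2an, and for other genes of the cell cycle 0.00041 for Plk4, 0.0108 for Rrm2 and 0.0199 for Pclaf. For Tm4sf1 it was 1.48e-10, for Tmsb4x 2.86e-10, for Fabp5 2.04e-07, for Cdkn1c 3.33e-07, for Lgals1 3.6e-06 and for Apoe 8.46e-06. For S100a6 it was 7.87e-05, for Wdcp 0.000192, for Gng11 0.0089, for Ptn 0.0199 and for H19 0.023. The highest cell held 94.3% of the UMIs of Tm4sf1 in Ho2, 84.5% of those of Cdkn1c, 75.0% of those of S100a6, 59.7% of those of H19 and 49.6% of those of Fabp5. In Ho1 it held all of Plk4, 61.3% of Ptn, 54.8% of Lgals1 and 32.1% of Apoe. None of the 19 was called under every alternative run. Tm4sf1 came nearest, lost with the gate on thinned cells alone, and DESeq2 lost the other 18.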

How the results depend on the processing

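In vascular cells the genotypes were compared over 42 and 12 cells, and a library left alone in its genotype was assumed to vary like the others. Of Ho against Wt, 5 genes were called in vascular cells, 1 by DESeq2, 21 with no filter on low counts, 0 with at least 10 UMIs in every sum, 0 with the gate on cells thinned to 2000 UMIs, 0 with sums thinned to the smallest library, 3 with Aplnr alone, 0 with up to 1 endocardial UMI allowed, and 4 to 53 over the libraries left out in turn (4 without Wt1, 15 without Wt2, 27 without Ho1, 53 without Ho2). At an unadjusted p under 0.05 the 4 settings with no call had 31, 93, 50 and 235 genes. In other endothelial cells, where no gene was called, there were 37 by DESeq2, 479 with no filter and 0 to 536 over libraries left out (16 without Ho1, 536 without Ho2). The interaction called 19 genes, 1 by DESeq2, 0 with at least 10 UMIs in every sum, 5 with the thinned gate, 10 with Aplnr alone, 41 with up to 1 endocardial UMI and 6 to 26 over libraries left out (6 without Wt1, 12 without Wt2). Except where the gate or the filter left fewer genes or cells, the cause was not tested.

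Deviations of same-numbered libraries had a correlation of -0.0609 in vascular and -0.182 in other cells, so that the numbers pair nothing known. The replicate block called 14 genes in vascular cells and 0 in the others, and crossed numbers, added later, 15 and 2. Ho minus Wt in the share of vascular cells kept its sign throughout, -1.84 to -0.0566 percentage points over libraries left out, the smallest without Wt1.

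With the gate on thinned cells, which kept 13, 3, 3 and 3 cells, the log2 fold change of Ccnd2 was -1.61, the interactions of Tm4sf1, Fabp5, Cdkn1c, Lgals1, Plk4 and Ptn were -0.16, -0.35, -0.29, -0.55, -0.84 and -0.12, and the log2 ratios over other cells of Prr5l, Sparcl1, Mmrn1 and Myct1 were -0.57, -1.03, -2.32 and -1.16, all reversed. Over libraries left out, the interaction of Plk4 was -0.99 to 4.13 and that of Ptn -2.90 to 3.72, both reversed without Ho1, and Ptn was at -3.15 with Aplnr alone. The gate settings with Aplnr alone, for the interaction and for the ratios over other cells, and with 1 endocardial UMI were chosen after seeing the data. So was leaving out libraries for those ratios.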

Other observations

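Other groups of genes were described in the vascular cells over the other endothelial cells, with no test. No gene of glycolysis and hypoxia or of cholesterol synthesis was 2 times higher or lower in 4 of 4 libraries, beside 0.451% and 1.84% of all genes. Of 16 genes of glycolysis and hypoxia, 14 had a positive median log2 ratio, where 2275 of all 5771 genes described had one. The median over the 16 genes was 0.54, against -0.11 over all genes described. The glucose transporter Slc2a1 had 29 and 5 UMIs in Wt and 6 and 8 in Ho, 2.77 times the other level (exact Poisson 95% interval 2.04 to 3.67). Of 19 genes of cholesterol synthesis 13 had a positive median ratio (median 0.21), with Fdps, the farnesyl diphosphate synthase, at 1.54 times (1.37 to 1.73). The 26 genes of that list summed to a higher level than in the other cells except in Ho1, at 736 against 963 CPM. The 5 hedgehog response genes described had a median of 0.15, the 20 S-phase genes -0.07, the 20 G2/M genes -0.09 and the 17 genes of heat shock and dissociation -0.40. Each list had none at 2 times higher or lower in 4 of 4 libraries, beside 0.451% and 1.84% of all genes.

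Egfl7, a secreted endothelial protein, was the most abundant pan-endothelial transcript with 1085 UMIs, 2.42 times the other level (2.28 to 2.57), and its 27 UMIs in Ho1 were the fewest. Lmo2, a transcriptional adaptor of endothelial and blood cells, was at 3.997 times (3.42 to 4.64). The 6 venous genes described had a median log2 ratio of 0.48, the 9 tip-cell genes 0.99 and the 6 capillary genes 1.40, although Fabp5, the most abundant of the last group, was at 0.351 times the other level (0.318 to 0.385). The potassium channel subunit Kcne3 was at 19.5 times (14.03 to 26.3), with 24 and 12 UMIs in Wt and 0 and 6 in Ho. The 3 sinusoidal genes described had a median of -0.03, and a single hemogenic gene could be described. The 29 Hox genes summed to 57 UMIs, with 37, 2, 4 and 14 in Wt1, Wt2, Ho1 and Ho2. Their level was 75.0, 13.7, 77.4 and 86.9 CPM in that order, against 29.8, 19.5, 11.1 and 31.1 in the other cells. The 5 epicardial genes summed to 6 UMIs, 4 of them in 1 cell of Ho1.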
